A study of Homo sapiens with 12 samples.

Results

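The 36 genes described here encode the glycolytic pathway and the best known targets of the hypoxia-inducible factor (HIF). They were chosen by gene symbol from the 15798 genes of the table: glucose transporters, glycolytic enzymes and their isozymes, the enzymes that set fructose 2,6-bisphosphate, lactate and pyruvate handling, oxygen sensing, and further hypoxia targets. All 36 had a row, and 33 were tested, which took 10 or more counts in 3 or more of the 6 input libraries. Of these, 32 reached 10 counts in all 6. EGLN3 passed with 9 to 25 counts per input library. SLC2A3, ALDOA and CA9 were too low to be tested.

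The cells were HCT116, a human colorectal cancer line, with no other perturbation in the labels. Trametinib, which blocks the kinase MEK directly upstream of ERK, was given at 100 nM for 24 h, and the control cells received its solvent, DMSO. From 3 dishes per treatment, cytoplasmic RNA (input) and the mRNA fragments shielded by ribosomes (footprints) were sequenced, which gave 12 libraries in 4 groups of 3. All cells received cycloheximide for a few minutes before lysis, and nothing in the labels says whether the dishes came from separate passages, so the p-values measure the spread between these samples, which may be technical.

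Cells take up glucose through GLUT transporters, and glycolysis breaks it down to pyruvate with a net gain of ATP. Tumor cells typically reduce much of this pyruvate to lactate even when oxygen is present. HIF, a dimer of an oxygen-regulated alpha subunit and a stable beta subunit, raises transcription of most glycolytic genes in low oxygen, and prolyl hydroxylases of the EGLN family mark the alpha subunit for degradation when oxygen is ample. ERK signaling is also known to promote glucose uptake and glycolysis in cancer cells.

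Counts within open reading frames summed to between 2276693 and 2845568 per input library and to between 10127477 and 19181588 per footprint library, so that input is the less precise assay. The treatment labels were checked with 10 genes driven by ERK, all of which were lower in input, by between 0.90 and 7.63 on the log2 scale, and in footprints. Of 9 epithelial markers, VIL1 had no count in input, and the summed level of the list was 5061 to 7685 CPM (counts scaled to a common library size) in DMSO input and 8444 to 10658 in trametinib input, with 5 of 8 tested markers higher and 0 lower. Of 9 markers of fibroblasts, endothelium and leukocytes, COL1A2, CD3E and CD68 had no count in DMSO input, and the summed level was 11.2 to 15.3 CPM in DMSO input and 30.3 to 38.2 CPM in trametinib input. COL3A1 and VWF rose in that list (log2 change in input 6.33 and 2.50). They had 1 and 13 counts in all DMSO input libraries together, against 98 and 66 in trametinib, and passed the filter mainly there. The part of such shifts in the results was not tested. In bulk RNA, fewer cells of a type and less RNA per cell cannot be told apart.

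DMSO dish 1 stood apart from dishes 2 and 3 in footprints, and less clearly in input. The median absolute log2 difference over the 33 members was 0.29 and 0.37 between its footprint library and those of dishes 2 and 3, against 0.10 between the latter, and in input it was 0.25 and 0.37 against 0.23. Over all tested genes, the footprint differences were 0.26 and 0.28 for DMSO dish 1, against 0.16 between dishes 2 and 3. In input, dishes 1 and 2 were the closest DMSO pair over these genes (0.28, against 0.31 between dishes 2 and 3). The footprint level of DMSO dish 1 lay outside the range of the other 5 footprint libraries for 20 of 33 members. Each other footprint library did so for 3 to 14, counted in the members only. In input this held for 15 members in dish 1, and for 6 to 15 in each other library. Changes are given with and without this dish wherever the call differs.

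In DMSO input, levels per kilobase of reading frame differed widely between genes. GAPDH, the glycolytic dehydrogenase, was highest at 5416 ± 706 CPM per kb (SD, n = 3). ENO1, the main enolase, at 1874 ± 174 and PKM, pyruvate kinase, at 1837 ± 98.9 CPM per kb overlapped in their ranges. TPI1, triosephosphate isomerase, followed at 1429 ± 214 CPM per kb, LDHA, lactate dehydrogenase A, at 832 ± 174, and PGK1, phosphoglycerate kinase, at 490 ± 42.9. The regulatory enzymes and the further hypoxia targets spanned a wide range of lower levels. SLC16A3, a lactate exporter, had 231 ± 50.4, PFKP, a phosphofructokinase, 196 ± 20.9, NDRG1 125 ± 47.6 and BNIP3 109 ± 17.2 CPM per kb. Lower levels were measured for HK1 at 59.9 ± 4.0, HK2 at 34.7 ± 2.8, PFKFB3 at 21.9 ± 1.2 and PDK1 at 16.6 ± 4.7 CPM per kb. The untested genes had 2.35 ± 0.62 (SLC2A3) and 1.27 ± 0.20 (CA9) CPM per kb, and ALDOA 0.096 ± 0.17.

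A few of these levels rest on part of a gene, since the authors counted reads that fell on one gene symbol only. In Gencode v44, all 30-base stretches of the ALDOA reading frame also occur in a transcript of another gene, and ALDOA had at most 5 counts per library; its part in the low count was not tested, as the authors used an earlier release. Reading frames of other genes share stretches with LDHB (83.0% of stretches), PGAM1 (61.4%, with PGAM4), SLC2A3 (44.6%, with SLC2A14) and EGLN1 (28.7%). Transcripts of other genes, mainly pseudogenes, share stretches with PGAM1 (95.9%), TPI1 (63.0%), BNIP3 (55.2%), HK2 (35.5%), GAPDH (29.9%) and LDHA (29.3%). Levels of all these genes against others are therefore uncertain.

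Trametinib moved these genes in both directions, with PFKFB3 and P4HA1 among the risers and HK2, PFKP and VEGFA among those that fell. In input, 5 of 33 members rose and 8 fell (edgeR quasi-likelihood test, Benjamini-Hochberg adjusted p under 0.05), which is 15.2% and 24.2%, where 15.4% and 16.8% of all 10663 tested genes rose and fell. In footprints, 7 rose and 9 fell, 21.2% and 27.3%, against 23.9% and 25.6% of all tested genes. Scaled by library totals, 9 members rose and 6 fell in footprints, and of all tested genes 3577 rose and 1944 fell, against 2545 and 2727 with TMM. The same 5 genes rose in both assays (PFKFB3, ALDOC, EGLN1, ADM and P4HA1) and the same 7 fell in both (SLC2A1, HK2, PFKP, ENO1, LDHA, SLC16A3 and VEGFA). The remaining calls were LDHB, lower in input, and PDK1 and PFKFB2, lower, and PDK3 and EGLN3, higher, in footprints. The median log2 change over the members was -0.15 in input and -0.10 in footprints, against -0.00 and -0.01 over all tested genes. Leaving out 1 library gave 3 to 6 higher and 5 to 11 lower members in input, with 3 higher without trametinib dish 2 or 3 and 5 lower without trametinib dish 1 or 2. Without DMSO dish 1, 5 rose and 11 fell in input and 8 rose and 12 fell in footprints, against 16.6%, 18.0%, 29.8% and 30.5% of all tested genes.

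**Figure D1:**
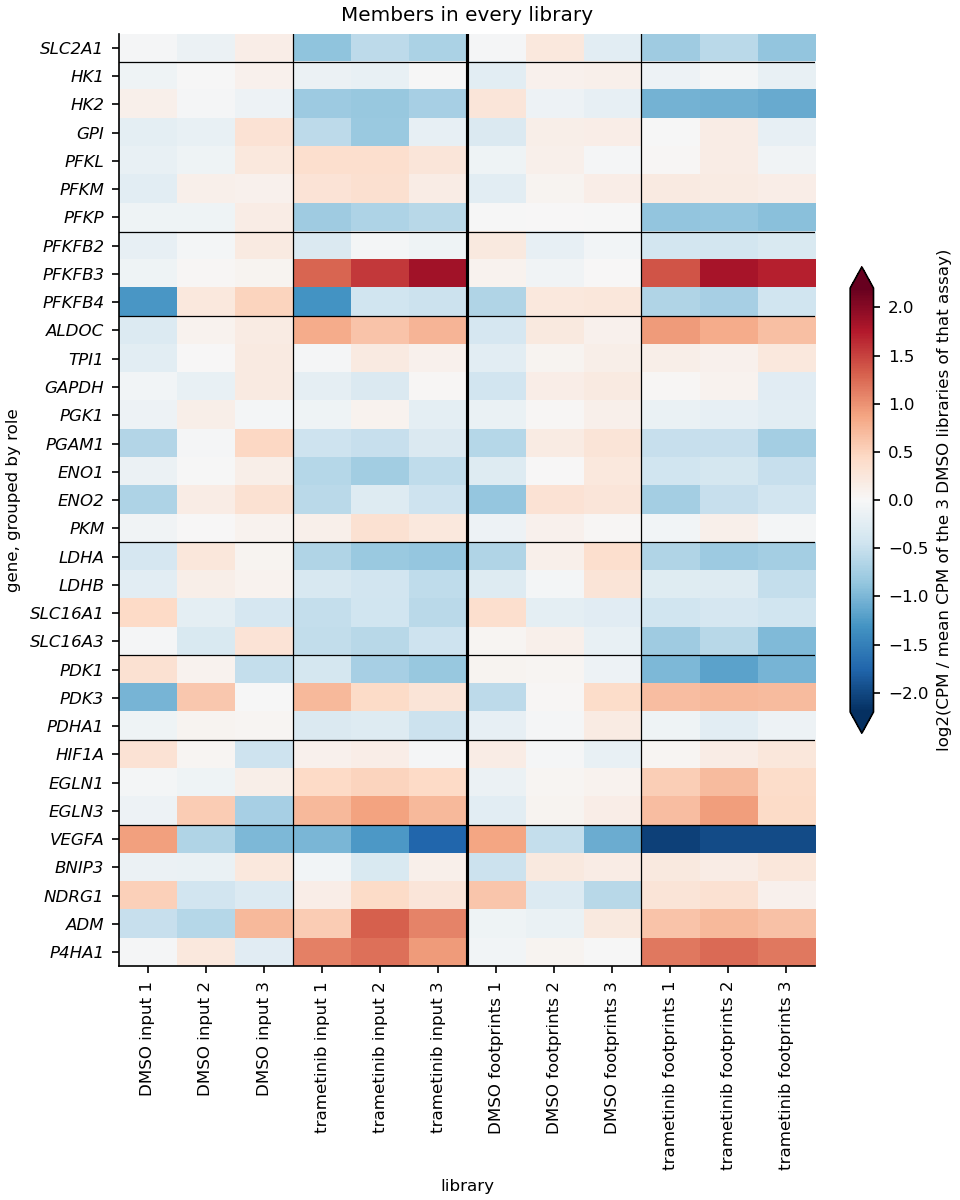
Heat map of the 33 tested members (rows, grouped by role from glucose transport to other hypoxia targets) in all 12 libraries (columns), as log2 of a library's CPM over the mean CPM of the 3 DMSO libraries of the same assay. PFKFB3 and P4HA1 were higher in every trametinib library and HK2 and PFKP lower, while the DMSO 1 columns differ from DMSO 2 and 3 for VEGFA, NDRG1, PFKFB4, ENO2 and PDK3.

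The gene for glucose entry fell after trametinib. SLC2A1 encodes GLUT1, the basal glucose transporter (chr1:42925353-42958893, minus strand, GRCh38). Its input level was 135, 125 and 153 CPM in the DMSO dishes and 74.4, 92.6 and 84.7 CPM in the trametinib dishes. Its footprint level was 173, 206 and 150 CPM in DMSO and 103, 117 and 96.0 CPM in trametinib. The groups did not overlap in either assay, and SLC2A1 fell by 0.71 ± 0.16 (log2 change ± SE, adjusted p = 0.00408) in input and by 0.74 ± 0.14 in footprints (adjusted p = 0.00269). SLC2A3, the neuronal high-affinity transporter GLUT3, reached only 2.02 to 5.27 CPM in any input library.

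HK2 and PFKP, both at the controlled early steps, fell, while their isozymes did not pass the test. Hexokinase traps glucose as glucose 6-phosphate, and HK2 (chr2:74834127-74893359, plus strand) is the form that is induced in many tumors. HK2 input levels were 104, 94.2 and 88.6 CPM in DMSO and 55.0, 53.6 and 57.5 CPM in trametinib. In footprints they were 139, 107 and 103 CPM in DMSO and 56.4, 55.5 and 54.1 CPM in trametinib, so that every trametinib library lay below every DMSO library. HK2 fell by 0.79 ± 0.15 in input (adjusted p = 0.00192) and by 1.07 ± 0.13 in footprints (adjusted p = 0.000273), whereas the log2 change of HK1 was -0.09 ± 0.14 and -0.10 ± 0.12.

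Phosphofructokinase 1 commits the sugar to glycolysis and is built from PFKL, PFKM and PFKP. PFKP, the platelet type, fell by 0.69 ± 0.14 in input (adjusted p = 0.00264) and by 0.88 ± 0.10 in footprints (adjusted p = 0.000154). The log2 change of PFKL in input was 0.34 ± 0.15 and that of PFKM 0.28 ± 0.15, and neither passed the test (adjusted p = 0.105 and 0.173). GPI, glucose 6-phosphate isomerase, had a log2 change of -0.51 ± 0.19 in input (adjusted p = 0.0606) and of -0.00 ± 0.16 in footprints; without DMSO dish 1, it fell in input (-0.60 ± 0.18, adjusted p = 0.0144), as it did without trametinib dish 3 (-0.70, adjusted p = 0.0315) and without a filter on low counts (-0.53, adjusted p = 0.0239). PFKL rose in input when DMSO dish 3 was left out (0.47, adjusted p = 0.0201).

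PFKFB3 showed the largest rise among the members. The PFKFB enzymes make and degrade fructose 2,6-bisphosphate, the strongest activator of phosphofructokinase 1, and PFKFB3 (chr10:6144934-6254644, plus strand) has the highest ratio of kinase over phosphatase activity of the family. Its input level was 32.1, 34.8 and 35.8 CPM in DMSO and 82.9, 100.1 and 124 CPM in trametinib. Its footprint level was 35.7, 32.1 and 34.3 CPM in DMSO and 89.0, 119 and 111 CPM in trametinib. The groups were far apart, and PFKFB3 rose 2.99-fold in input (log2 change 1.58 ± 0.18, adjusted p = 3.9e-05) and 3.12-fold in footprints (1.64 ± 0.13, adjusted p = 2.07e-05).

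The other members of this family did not follow PFKFB3. PFKFB2 passed the threshold narrowly in footprints (-0.38 ± 0.14, adjusted p = 0.0499) and was not called without DMSO dish 1 (-0.27 ± 0.13, adjusted p = 0.0863) or without DMSO dish 3 or any trametinib dish (adjusted p = 0.0715 to 0.147), nor with the replicate number as a block (adjusted p = 0.0657). PFKFB4, another hypoxia-inducible form, had a log2 change of -0.68 ± 0.39 in input and -0.60 ± 0.24 in footprints, with DMSO dish 1 at 9.49 CPM in input against 27.2 and 32.6 CPM in dishes 2 and 3. Without dish 1, PFKFB4 fell in both assays (-1.06 ± 0.26, adjusted p = 0.00407, and -0.85 ± 0.13, adjusted p = 9.59e-05).

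Of the 8 tested enzymes between fructose bisphosphate and pyruvate, 1 rose and 1 fell in each assay. This is 12.5% each way, where 15.4% of all tested genes rose and 16.8% fell in input, and 23.9% and 25.6% in footprints. With only 8 genes, such a difference cannot be read as a shortfall. Without DMSO dish 1, ENO1, PGAM1 and ENO2 fell in both assays, where 18.0% of all tested genes fell in input and 30.5% in footprints. GAPDH (chr12:6534512-6538374, plus strand), often used as a reference gene, had 5249, 4851 and 6229 CPM in DMSO input and 4738, 4387 and 5568 CPM in trametinib input. Its footprint level was 3292, 4911 and 5039 CPM in DMSO and 4513, 4631 and 3700 CPM in trametinib. The groups overlapped in both assays, with a log2 change of -0.15 ± 0.14 (adjusted p = 0.452) and -0.04 ± 0.19 (adjusted p = 0.864), the latter of opposite sign when libraries were scaled by their totals alone.

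PKM (chr15:72199029-72231819, minus strand) makes pyruvate and ATP in the last step. It had 2764, 2934 and 3079 CPM in DMSO input and 3167, 3684 and 3428 CPM in trametinib input, and 4062, 4666 and 4451 against 4237, 4767 and 4239 CPM in footprints. The groups were apart in input and overlapped in footprints, and neither change passed the test (0.23 ± 0.13, adjusted p = 0.193, and 0.01 ± 0.13, adjusted p = 0.97). The values do not separate the M1 and M2 splice forms, which share one symbol. TPI1 and PGK1 had log2 changes between -0.19 and 0.15 over both assays and were not called.

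ENO1 fell by 0.65 ± 0.13 in input (adjusted p = 0.00277) and by 0.45 ± 0.16 in footprints (adjusted p = 0.0406), where the call was lost when any library but that of DMSO dish 1 was left out (adjusted p = 0.0952 to 0.125). ALDOC, the brain form of aldolase, rose by 0.73 ± 0.17 (adjusted p = 0.00495) and 0.81 ± 0.16 (adjusted p = 0.00316). PGAM1, phosphoglycerate mutase, and ENO2, the neuronal enolase, were low in DMSO dish 1 and passed the edgeR test when it was left out, with log2 changes in footprints of -0.81 ± 0.11 (adjusted p = 2.39e-05) and -0.84 ± 0.11 (adjusted p = 2.1e-05), against -0.58 ± 0.22 and -0.55 ± 0.27 with all libraries. Their input changes without dish 1 were -0.67 ± 0.16 (adjusted p = 0.00319) and -0.69 ± 0.18 (adjusted p = 0.00643).

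**Figure D2:**
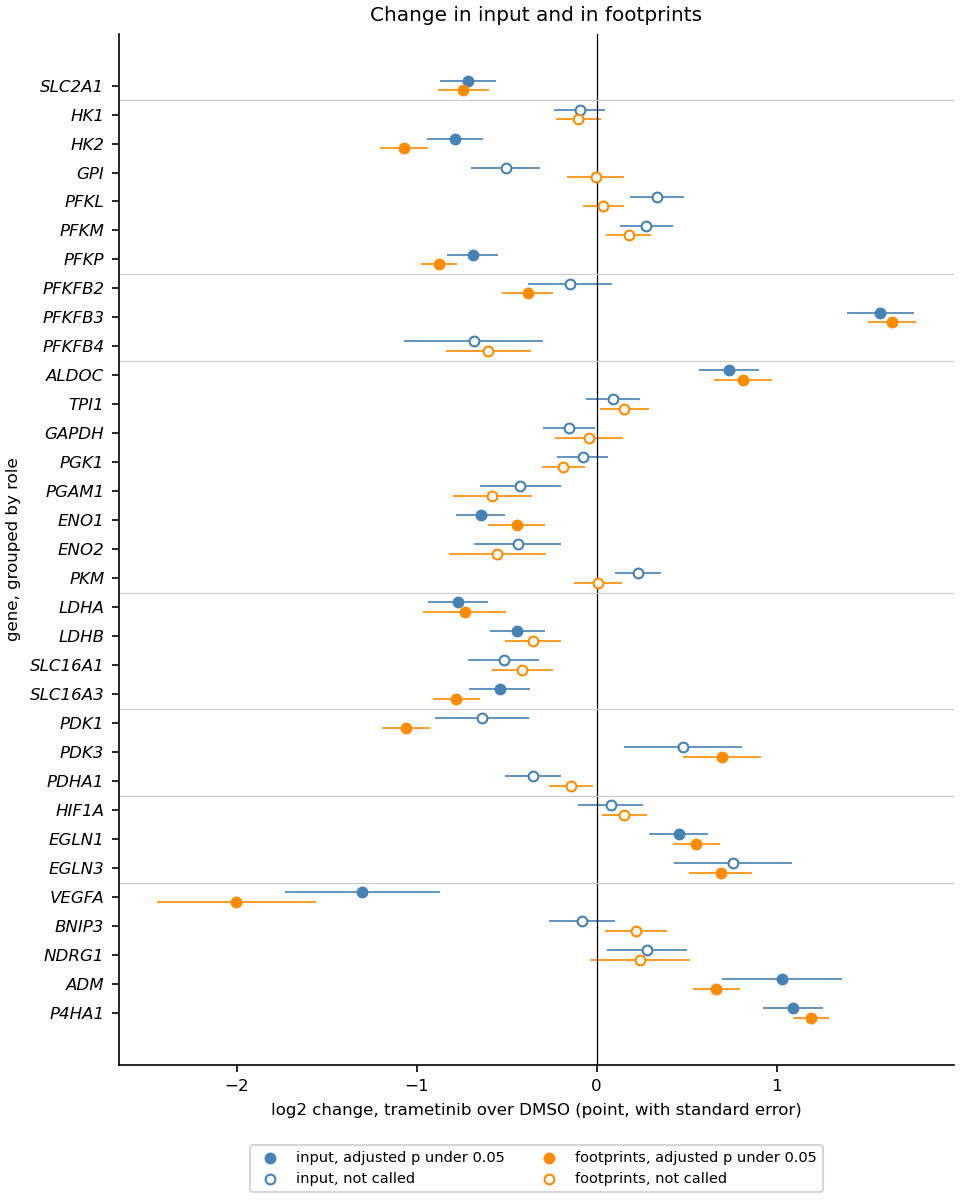
Log2 change of trametinib over DMSO (x axis, with standard error) of the 33 tested members (y axis, grouped by role) in input and in footprints, with filled points for an adjusted p under 0.05. The points of both assays lie close to each other for most genes, with PFKFB3 farthest to the right (1.58 and 1.64) and VEGFA farthest to the left (-1.30 and -2.00).

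Of the 4 genes of lactate production and export, 3 fell in input and 2 in footprints, where 16.8% and 25.6% of all tested genes fell. LDHA (chr11:18394560-18408425, plus strand) converts pyruvate to lactate and restores NAD+ for GAPDH. Its input level was 640, 980 and 865 CPM in DMSO and 522, 473 and 461 CPM in trametinib. Its footprint level was 1362, 2314 and 2769 CPM in DMSO and 1361, 1229 and 1284 CPM in trametinib. DMSO dish 1 was the lowest DMSO library in both assays and nearly touched the trametinib values in footprints. LDHA fell by 0.77 ± 0.17 in input (adjusted p = 0.00352) and by 0.73 ± 0.23 in footprints (adjusted p = 0.0272), and without dish 1 by 0.93 ± 0.14 (adjusted p = 3.66e-05) and 0.97 ± 0.12 (adjusted p = 1.09e-05). The footprint call was lost when any other library was left out (adjusted p = 0.064 to 0.0943).

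SLC16A3, the lactate exporter MCT4, fell by 0.54 ± 0.17 in input (adjusted p = 0.0276) and by 0.78 ± 0.13 in footprints (adjusted p = 0.00125). Its input call was lost without DMSO dish 3 or any trametinib dish (adjusted p = 0.0656 to 0.115). LDHB, the heart form that favors pyruvate, fell in input (-0.44 ± 0.15, adjusted p = 0.0427), and its change in footprints passed the test only without dish 1 (-0.47 ± 0.12, adjusted p = 0.00438). The input call of LDHB was lost when any library but that of DMSO dish 1 was left out (adjusted p = 0.0677 to 0.166). SLC16A1, the transporter MCT1, had a log2 change of -0.52 ± 0.20 in input and -0.41 ± 0.17 in footprints that missed the threshold (adjusted p = 0.0628 and 0.0716). Here DMSO dish 1 was 1.66 and 1.53 times the mean of dishes 2 and 3 in input and footprints, and without it the log2 changes were -0.23 ± 0.15 and -0.18 ± 0.092. Without DMSO dish 3 instead, SLC16A1 fell in both (-0.66, adjusted p = 0.0156, and -0.51, adjusted p = 0.0403).

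Pyruvate enters the mitochondrial citrate cycle through pyruvate dehydrogenase, which PDK kinases switch off. PDK1 (chr2:172555373-172608669, plus strand), a classical HIF target, had 27.4, 22.8 and 15.1 CPM in DMSO input and 16.6, 13.2 and 12.3 CPM in trametinib input. In footprints it had 22.9, 22.8 and 20.4 CPM in DMSO and 11.1, 9.72 and 10.8 CPM in trametinib. The groups overlapped in input and stood well apart in footprints, where PDK1 fell by 1.06 ± 0.13 (adjusted p = 0.000267), while its input change was -0.63 ± 0.26 (adjusted p = 0.0811) and passed the test without DMSO dish 3 (-0.83, adjusted p = 0.0175). PDK3 rose in footprints (0.70 ± 0.22, adjusted p = 0.0251), a call lost without DMSO dish 2 or any trametinib dish (adjusted p = 0.0624 to 0.073). PDHA1, the catalytic subunit of the dehydrogenase, was not called in either assay (-0.35 ± 0.16 and -0.14 ± 0.12).

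The mRNA of HIF1A, the alpha subunit of HIF-1, did not pass the test. HIF1A (chr14:61695513-61748259, plus strand) had 344, 285 and 203 CPM in DMSO input and 296, 309 and 274 CPM in trametinib input. Its footprints were 573, 502 and 459 CPM in DMSO and 525, 575 and 607 CPM in trametinib. The groups overlapped in both assays, with log2 changes of 0.08 ± 0.18 (adjusted p = 0.78) and 0.15 ± 0.13 (adjusted p = 0.336). HIF-1 alpha is set mainly at the protein level, which these libraries do not measure. Among the hydroxylases, EGLN1 rose by 0.46 ± 0.16 in input (adjusted p = 0.0487) and by 0.55 ± 0.13 in footprints (adjusted p = 0.00708), and EGLN3 rose in footprints (0.69 ± 0.18, adjusted p = 0.0108). The input call of EGLN1 was lost without dish 1 (0.44 ± 0.18, adjusted p = 0.0755) and when any other library but that of DMSO dish 3 was left out (adjusted p = 0.115 to 0.151). For EGLN3, the footprint call was lost without trametinib dish 2 (0.56, adjusted p = 0.0527), and its input change, 0.76 ± 0.33 (adjusted p = 0.0965), passed the test without DMSO dish 2 (1.14, adjusted p = 0.033).

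The other hypoxia targets split, with VEGFA lower and P4HA1 and ADM higher. VEGFA (chr6:43770184-43786487, plus strand), the main angiogenic growth factor, had 71.2, 23.9 and 19.1 CPM in DMSO input and 19.0, 15.8 and 11.4 CPM in trametinib input. In footprints it had 78.7, 30.1 and 20.2 CPM in DMSO and 10.4, 11.0 and 11.0 CPM in trametinib. DMSO dish 1 was about 3 times as high as the other DMSO dishes in both assays (3.31 and 3.13 times their mean), and DMSO dish 3 nearly met the highest trametinib value in input. With all libraries VEGFA fell by 1.30 ± 0.43 in input (adjusted p = 0.0344) and by 2.00 ± 0.44 in footprints (adjusted p = 0.0053). Without dish 1, the footprint change remained called at -1.20 ± 0.16 (adjusted p = 3.48e-05), and the input change did not (-0.48 ± 0.26, adjusted p = 0.169). The input call was also lost without any 1 of the trametinib dishes (adjusted p = 0.054 to 0.116).

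P4HA1 (chr10:73007217-73096974, minus strand) is the catalytic subunit of collagen prolyl 4-hydroxylase. It had 80.3, 96.4 and 69.1 CPM in DMSO input and 177, 191 and 157 CPM in trametinib input, and 76.3, 83.5 and 79.4 against 179, 189 and 178 CPM in footprints. Each trametinib library lay above each DMSO library, and P4HA1 rose by 1.09 ± 0.17 in input (adjusted p = 0.000318) and 1.19 ± 0.10 in footprints (adjusted p = 2.65e-05).

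ADM (chr11:10305073-10307397, plus strand) encodes adrenomedullin, a vasodilator peptide. It had 11.3, 10.5 and 26.6 CPM in DMSO input and 23.9, 40.4 and 34.2 CPM in trametinib input, where the groups overlapped through DMSO dish 3. In footprints it had 23.1, 22.3 and 28.7 CPM in DMSO and 38.3, 40.6 and 38.8 CPM in trametinib, without overlap. ADM rose by 1.03 ± 0.33 in input (adjusted p = 0.0312) and by 0.67 ± 0.13 in footprints (adjusted p = 0.00306). The input call was lost without DMSO dish 2 (0.80, adjusted p = 0.129), trametinib dish 2 (0.85, adjusted p = 0.135) or trametinib dish 3 (1.00, adjusted p = 0.0823).

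BNIP3, a mitophagy receptor, was not called in either assay (-0.08 ± 0.18 and 0.22 ± 0.17). NDRG1, a stress-induced gene, had log2 changes of 0.28 ± 0.22 and 0.24 ± 0.28 with all libraries. Its level in DMSO dish 1 was 1.84 times the mean of dishes 2 and 3 in input and 2.09 times in footprints, and without this dish NDRG1 rose in both assays (0.64 ± 0.16, adjusted p = 0.00382, and 0.69 ± 0.12, adjusted p = 0.000238). CA9, a surface carbonic anhydrase that is strongly induced by hypoxia, stayed between 0.81 and 1.99 CPM in all input libraries.

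**Figure D3:**
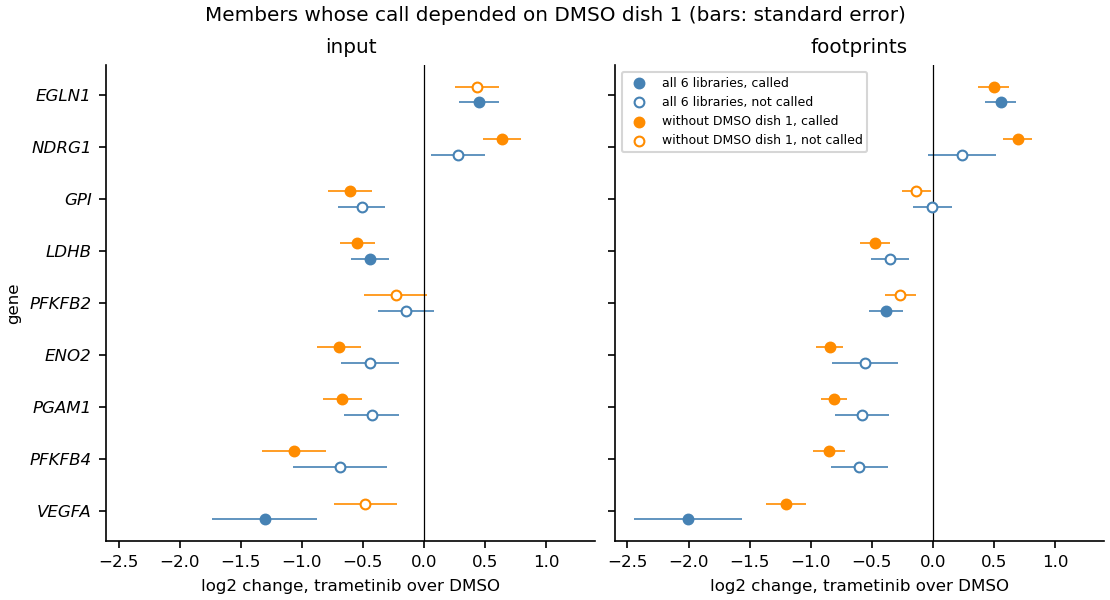
Log2 change (x axis, with standard error) of the 9 members whose call depended on DMSO dish 1, in input (left) and footprints (right), with all 6 libraries (blue) and without DMSO dish 1 (orange), filled where called. PFKFB4, PGAM1, ENO2 and NDRG1 are called in both assays only without the dish, and the VEGFA change is smaller without it.

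Within isozyme sets, the share of HK2 and PFKP in the summed counts was lower and that of PFKFB3 higher in every trametinib library. A share within a library does not depend on the scaling of libraries. HK2 made up 36.7% ± 3.4 of HK1 and HK2 counts in the DMSO input libraries and 26.4% ± 0.37 in those of trametinib (SD, n = 3), and 37.5% ± 7.2 and 23.4% ± 0.64 in footprints. PFKP made up 48.1% ± 1.9 of phosphofructokinase counts in the DMSO input libraries and 31.8% ± 2.2 in those of trametinib, and 50.3% ± 2.5 and 33.5% ± 0.36 in footprints. PFKFB3 went from 48.9% ± 9.0 to 78.8% ± 2.2 of PFKFB2, PFKFB3 and PFKFB4 input counts, and in footprints from 43.7% ± 3.7 to 77.1% ± 2.8. PDK1 went from 60.0% ± 16.4 to 40.4% ± 0.34 of PDK1 and PDK3 input counts, and in footprints from 52.0% ± 9.7 to 23.6% ± 1.4.

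LDHA kept most of the lactate dehydrogenase counts, with 80.8% ± 1.4 in DMSO input and 77.2% ± 0.65 in trametinib input, and 85.8% ± 2.5 and 82.8% ± 1.4 in footprints, where the groups overlapped. Another gene shares 83.0% of the LDHB stretches, so the size of the LDHA share is uncertain. SLC16A3 accounted for 57.9% ± 9.5 and 57.3% ± 2.6 of SLC16A1 and SLC16A3 counts in input. For 10 of the 18 shares over 9 sets, the groups did not overlap, which gives p = 0.1 in the exact two-sided permutation test. This is the smallest p that 3 against 3 libraries allow, and the adjusted exact p was 0.18, so that no share can pass the threshold of this test.

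**Figure D4:**
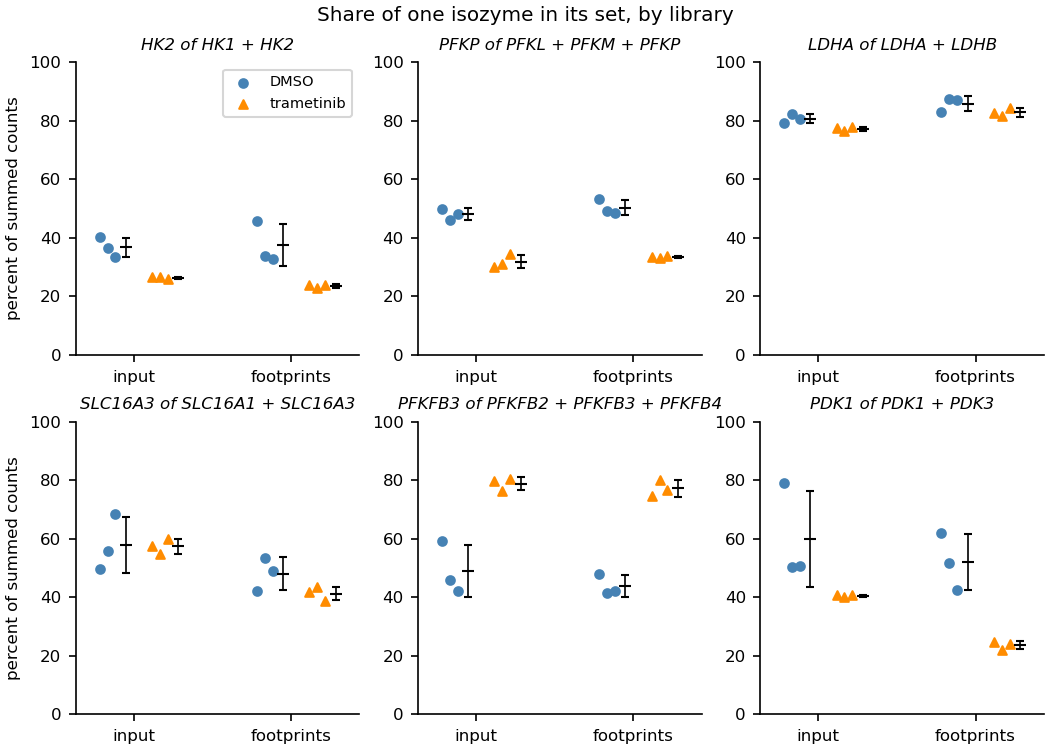
Share of 1 isozyme in the summed counts of its set (y axis, percent) for 6 sets, in each input and footprint library of DMSO (circles) and trametinib (triangles), with mean and SD as black bars. For HK2, PFKP, PFKFB3 and PDK1 the groups do not overlap in either assay, and for SLC16A3 they overlap in both.

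Ribosome density, the ratio of footprints over input for a gene, did not pass the test for any member. In a single edgeR model over all 12 libraries, 0 of 33 members changed, and 0.91% of all 10663 tested genes did (10 higher and 87 lower). At an unadjusted p under 0.05 there was 1 member, GPI (log2 change 0.58 ± 0.27, adjusted p = 0.561). DESeq2 and limma-trend also called 0 members, as did all 23 other settings, with 0.226 as the smallest adjusted p. The log2 changes in density ranged from -0.62 to 0.58, with a median of 0.07 for the members and for all tested genes alike. With a median SE of 0.23, changes of that order were not detectable here, and a change in translation shared by all mRNAs would be removed by the scaling of the libraries.

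The density of HK2 was 1.34, 1.13 and 1.16 in the DMSO dishes and 1.03, 1.04 and 0.94 in the trametinib dishes, with a log2 change of -0.21 ± 0.19. That of VEGFA was 1.11, 1.26 and 1.06 in DMSO and 0.55, 0.69 and 0.96 in trametinib (-0.62 ± 0.72), and that of PKM 1.47, 1.59 and 1.45 against 1.34, 1.29 and 1.24 (-0.14 ± 0.17). These 3 were the only members whose densities did not overlap between the treatments, and none was called. How often this holds among all tested genes is not given here. PFKFB3 had 1.11, 0.92 and 0.96 in DMSO and 1.07, 1.19 and 0.90 in trametinib, with overlapping groups. PDK1, called in footprints and not in input, had a density change of -0.35 ± 0.28 (adjusted p = 0.824), and a difference between the assays is therefore not shown. The density changes of SLC2A1 (0.05 ± 0.20), GAPDH (0.18 ± 0.24), LDHA (0.11 ± 0.30), HIF1A (0.15 ± 0.23), P4HA1 (0.17 ± 0.19) and ADM (-0.29 ± 0.38) were small against their errors. All these errors come from a model that does not pair the input and footprints of a dish. For VEGFA, high in both assays of DMSO dish 1, the SD of the density over the DMSO dishes was 0.10. With a block for each dish, no member was called either. The edgeR model scaled all 12 libraries together, whereas the density of a dish uses CPM scaled within an assay. Over all tested genes, the median density change in that model was 0.07, against -0.00085 with median-of-ratios size factors. SLC2A1 had 0.05 and -0.020, so the sign of such small changes depends on the scaling.

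In DMSO, 29 of 33 members had a density above the median of all tested genes. LDHA was at the 94.2 percentile, PGK1 at 92.5, PDHA1 at 92.1 and NDRG1 at 92.0, with EGLN1 lowest at 22.4 and SLC16A3, GAPDH and PFKL also below the median. The median density of the members was 1.28 to 1.47 in the DMSO dishes and 1.21 to 1.39 in the trametinib dishes, against 0.96 to 0.99 and 0.94 to 0.97 for all tested genes. Footprints and input come from differently prepared fragments, so density orders genes within these libraries and is no absolute rate.

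**Figure D5:**
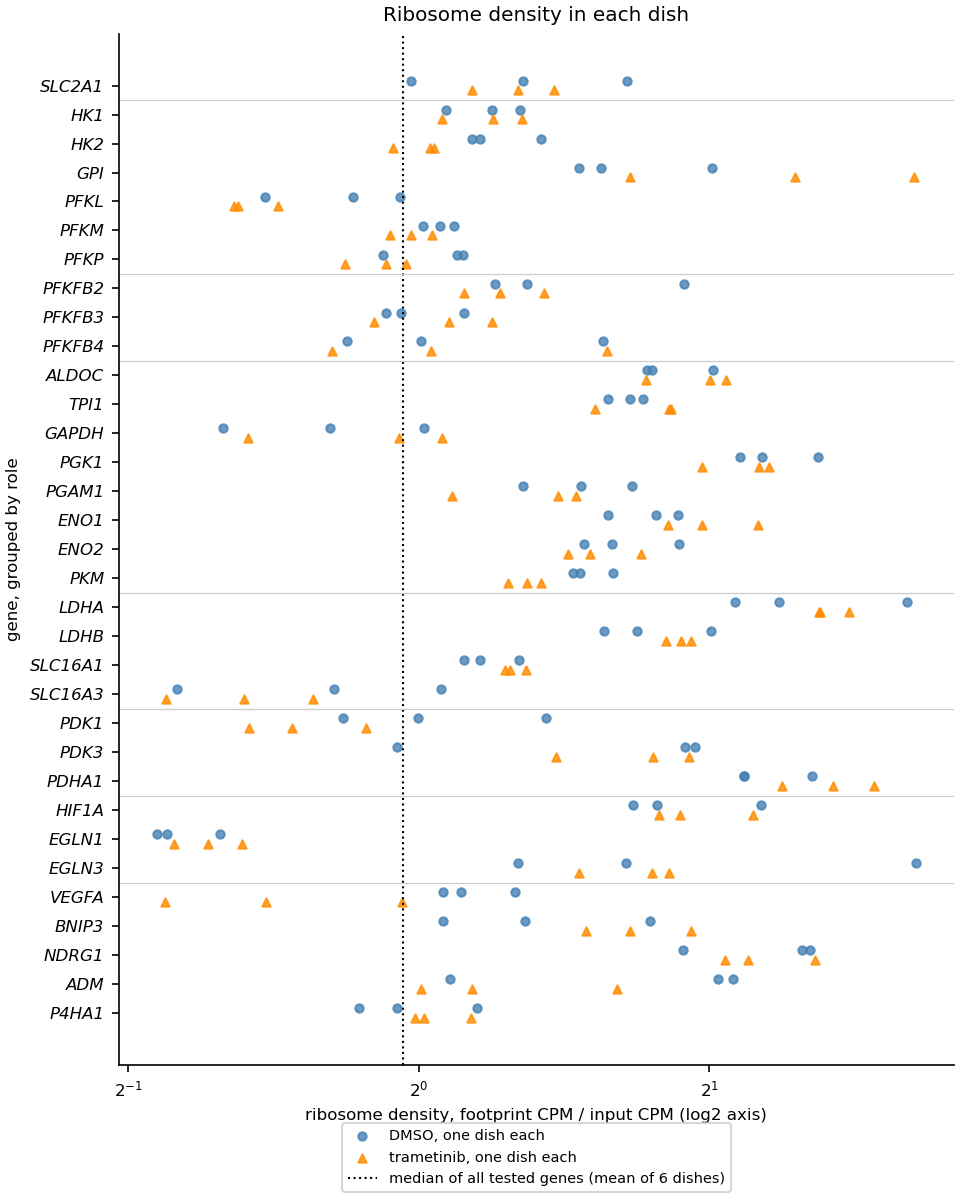
Ribosome density (footprint CPM over input CPM, log2 axis) of the 33 tested members in each DMSO dish (circles) and trametinib dish (triangles), with the median of all tested genes as a dotted line. Of the members, 29 of 33 had a DMSO mean to the right of the line, with EGLN1 at 0.54 to 0.66 well to its left.

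Together the members held 1.72% ± 0.18 of input counts in DMSO and 1.55% ± 0.054 in trametinib, and 2.22% ± 0.32 and 2.25% ± 0.12 of footprint counts (SD, n = 3). In both assays DMSO dish 1 had the lowest DMSO share (1.55% in input and 1.85% in footprints). The ranges of the groups overlapped in both assays, and no test was made over the members.

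HIF binds a short core, ACGTG or GCGTG, in hypoxia response elements, and the promoters of 4 members that fell or rose in both assays are shown to place it. They comprise 250 bases before and 50 bases after the start site from RefSeq (GRCh38.p14), read on the gene's strand, and capitals mark the core on either strand, which reads CACGT or CACGC on the other strand. HK2 lies at chr2:74833877-74834176 (plus strand), LDHA at chr11:18394313-18394612 (plus), PFKFB3 at chr10:6144671-6144970 (plus) and P4HA1 at chr10:73096817-73097116 (minus).
HK2: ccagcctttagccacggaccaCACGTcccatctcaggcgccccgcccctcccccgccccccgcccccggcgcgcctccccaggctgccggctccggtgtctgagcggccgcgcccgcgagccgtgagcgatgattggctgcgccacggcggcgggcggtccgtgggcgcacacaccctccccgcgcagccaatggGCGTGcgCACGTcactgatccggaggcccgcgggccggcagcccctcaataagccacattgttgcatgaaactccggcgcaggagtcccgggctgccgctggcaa
LDHA: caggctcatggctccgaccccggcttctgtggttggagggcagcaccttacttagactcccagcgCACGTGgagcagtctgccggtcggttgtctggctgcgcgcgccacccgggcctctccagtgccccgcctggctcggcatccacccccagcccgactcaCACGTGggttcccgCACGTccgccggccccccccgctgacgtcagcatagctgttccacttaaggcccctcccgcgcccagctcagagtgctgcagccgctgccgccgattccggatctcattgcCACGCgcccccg
PFKFB3: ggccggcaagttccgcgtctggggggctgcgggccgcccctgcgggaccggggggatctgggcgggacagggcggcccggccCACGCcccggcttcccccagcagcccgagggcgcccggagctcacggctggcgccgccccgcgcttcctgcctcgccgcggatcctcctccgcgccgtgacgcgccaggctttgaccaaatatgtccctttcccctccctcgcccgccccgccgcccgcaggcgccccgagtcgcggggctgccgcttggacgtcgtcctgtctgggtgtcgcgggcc
P4HA1: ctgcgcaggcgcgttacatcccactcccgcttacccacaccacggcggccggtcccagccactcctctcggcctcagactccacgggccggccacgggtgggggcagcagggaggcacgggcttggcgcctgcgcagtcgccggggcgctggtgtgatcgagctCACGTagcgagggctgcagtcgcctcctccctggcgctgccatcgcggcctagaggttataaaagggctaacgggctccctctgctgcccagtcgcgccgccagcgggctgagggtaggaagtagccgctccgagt

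HK2 held 3 matches, LDHA 6, PFKFB3 1 and P4HA1 1, where CACGTG, which is also the E-box bound by MYC and related factors, counts as 2 overlapping matches. Promoters were matched for 31 of 36 members, and 23 of these (74.2%) held at least 1 match, against 64.8% of the 8717 promoters of tested genes and 48.4% of all 27305 promoters. The 31 include ALDOA and CA9, which were not tested and held 1 match each. The core is short and common, genes that fell and genes that rose both held it, and a match is a description only.

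Further genes of these pathways were taken from lists of 76 genes, of which 55 were tested, and some were called in either direction. In input 10 rose and 7 fell (18.2% and 12.7%, against 15.4% and 16.8% of all tested genes), and in footprints 12 rose and 11 fell (21.8% and 20.0%, against 23.9% and 25.6%), with medians of -0.02 and -0.06 (log2), and none changed in density. Among 7 tested genes of glycolysis and gluconeogenesis, PCK2, the mitochondrial PEP carboxykinase, fell, with a log2 change of -2.08 ± 0.48 in input (adjusted p = 0.00543) and -2.40 ± 0.65 in footprints (adjusted p = 0.0141). Without DMSO dish 1, these were -1.02 ± 0.20 and -1.02 ± 0.18 (adjusted p = 0.000754 and 0.000292), and the footprint call was lost without trametinib dish 3 (adjusted p = 0.0621) and without 1 further library. Among 11 genes of pyruvate dehydrogenase and pyruvate transport, PDK4, a kinase induced in fasting, rose by 2.50 ± 0.44 in input (adjusted p = 0.000932) and 1.75 ± 0.13 in footprints (adjusted p = 1.04e-05). PDK4 had only 17 counts in all DMSO input libraries together, against 86 in those of trametinib. It passed the filter on input counts mainly through trametinib, so the size of its input change is uncertain.

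Of 23 tested further hypoxia-inducible genes, 5 rose and 4 fell in input, and 6 rose and 6 fell in footprints, which is near the shares of all tested genes given above. STC2, a secreted glycoprotein, fell, with a log2 change in input of -3.49 ± 0.40 (adjusted p = 3.38e-05). DDIT4, an inhibitor of mTORC1, had -1.48 ± 0.37 and BHLHE40, a transcriptional repressor, -1.46 ± 0.19 (adjusted p = 0.00818 and 8.29e-05). Without DMSO dish 1, all 3 were still called in input, with -2.96 for STC2, -0.72 for DDIT4 and -1.36 for BHLHE40. EFNA1, an ephrin ligand, rose in both assays, by 0.88 ± 0.17 in footprints (adjusted p = 0.00283). There PLOD2, a collagen lysyl hydroxylase, also rose, by 1.04 ± 0.13, CA12, a carbonic anhydrase, by 1.28 ± 0.18 and TMEM45A by 1.09 ± 0.26. In input PLOD2 rose as well (0.83 ± 0.21, adjusted p = 0.00845). CA12 (0.61 ± 0.52, adjusted p = 0.401) and TMEM45A (0.75 ± 0.36, adjusted p = 0.127) were not called in input. CA12 had only 26 counts in all DMSO input libraries together and 35 in those of trametinib. Of 7 tested HIF subunits and regulators, CITED2, which competes with HIF for its coactivators, rose by 1.83 ± 0.17 in input and 1.81 ± 0.12 in footprints (adjusted p = 5.16e-06 and 6.51e-06), and ARNT, the beta subunit, rose by 0.52 ± 0.17 in input (adjusted p = 0.0314), a call that held in only 1 of 6 fits with a library left out (largest adjusted p = 0.135, without trametinib dish 1). In footprints ARNT rose by 0.41 ± 0.12 (adjusted p = 0.0169), which held in 4 of 6 such fits (largest adjusted p = 0.0726, without trametinib dish 2).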

How the data were processed

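Ribosome profiling and matched input RNA of HCT116 cells were analyzed in 4 groups of 3 libraries, taken from the sample labels. The authors discarded reads aligning to rRNA and tRNA with Bowtie 1.2.2, mapped the rest to the basic Gencode V38 set and counted 25 to 35 nt reads on reading frames of a single gene symbol. The deposited table holds raw whole-number counts per library, and beside them a normalized signal, which the authors obtained from the counts with size factors and which served only as a check. Their own fold changes and adjusted p-values were not used.

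Counts were tested in R 4.3.3 with edgeR 4.0.16 (quasi-likelihood, TMM scaling, Benjamini-Hochberg over the 10663 genes that had 10 or more counts in 3 or more input libraries, adjusted p under 0.05) within input, within footprints, and as the interaction of assay and treatment for density. Standard errors were derived from the F statistic. CPM values are TMM-scaled within an assay. The code was tested on simulated data. Alternatives used DESeq2 1.42.0, limma 3.58.1 (prior count 2), other scalings, filters, blocks and left-out libraries.

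Input and footprints of the same treatment and number were taken as one dish, since the methods describe one lysate. Deviations from the group mean correlated at 0.799, 0.186 and 0.345 for the DMSO dishes and at 0.143, 0.071 and -0.109 for the trametinib dishes (Pearson's r across 8433 genes of these libraries, not across replicates). Same-numbered libraries of both treatments correlated at 0.108, 0.129 and 0.288 in footprints, above the limit of 0.1 set for a pairing, and at 0.069, 0.060 and 0.309 in input, where 2 pairs were below it.

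The members and gene lists were chosen with earlier results of these data known. Values per library are given for members with an adjusted p under 0.05 and a log2 change of at least 1 in size in either assay, and for SLC2A1, HK2, GAPDH, PKM, LDHA, HIF1A and VEGFA. Of the further lists, at most 12 genes past the same limits are named, some results of these lists are not reported here, and ARNT and the marker genes with values were added after their values were seen. Reading frame lengths and overlaps came from Gencode v44 (GRCh38) and promoters from RefSeq.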

Additional observations from a re-analysis of the deposited data

How the results depend on the processing

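The member counts stayed within 1.5 times of those reported under other scalings, filters and tools (input 4 to 5 higher and 6 to 11 lower, footprints 7 to 9 higher and 6 to 10 lower, density 0), except with a limit of at least 2-fold, which left 3 higher and 1 lower in input and 2 higher and 3 lower in footprints. Leaving out 1 library gave 3 to 6 higher and 5 to 11 lower in input, and 5 to 8 higher and 6 to 12 lower in footprints. Same-numbered libraries of both treatments deviated together in footprints and less so in input. A replicate block on the number gave 5 higher and 11 lower in input, with GPI (adjusted p = 0.0056), SLC16A1 (0.0264) and PDK1 (0.0443) called in addition, and 7 higher and 8 lower in footprints, where PFKFB2 (0.0657) was lost and no other member's call changed. The replicate block for each dish left density at 0. Scaling by library totals moved the footprint median of all genes from -0.01 to 0.16 (log2) and turned the sign of HK1 (0.074), GPI (0.17), GAPDH (0.13) and PDHA1 (0.032), while HIF1A (0.33, adjusted p = 0.0469) and PFKM (0.35, adjusted p = 0.0444) rose. GPI in footprints was 0.0036 with limma-trend and 0.0038 with the block on the number, and PKM -0.0029 without a filter and -0.0015 with the filter on either kind. The density change of SLC2A1 was -0.020 with median-of-ratios size factors and -0.020 with DESeq2. None of the changes that turned sign was called. Calls in density over all genes went from 10 higher and 87 lower to 31 and 127 with the block for each dish, 27 and 78 with library totals, 35 and 149 with DESeq2 and 21 and 129 without DMSO dish 1.

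Signs also turned when 1 library was left out, for TPI1 (-0.016 to 0.20), HIF1A (-0.10 to 0.26) and BNIP3 (-0.19 to 0.056) in input, for GPI (-0.13 to 0.087), PFKL (-0.029 to 0.10), GAPDH (-0.21 to 0.074) and PKM (-0.052 to 0.059) in footprints, and in density for SLC2A1 (-0.063 to 0.17), PFKFB3 (-0.021 to 0.25), LDHA (-0.13 to 0.35), HIF1A (-0.032 to 0.30) and VEGFA (-1.45 to 0.17). In density, signs were followed gene by gene only for SLC2A1, HK2, GPI, PFKFB3, GAPDH, PKM, LDHA, PDK1, HIF1A, VEGFA, ADM and P4HA1. The difference in share turned for SLC16A3 in input (-4.68 to 4.66 percentage points) and ENO2 in footprints (-0.43 to 0.17). Without the 28 genes that were among the 10 with the most counts in any library, 3 of them members, the members held 0.745% and 0.679% of DMSO and trametinib input counts and 1.10% and 1.10% of footprint counts.

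The VEGFA input call was lost with DESeq2 (adjusted p = 0.114) and limma-trend (0.0558), that of EGLN1 with DESeq2 (0.111), library totals (0.0553), no filter (0.092) and the filter on either kind (0.0609), and that of LDHB with DESeq2 (0.0527). In footprints, PFKFB2, ENO1 and LDHA lost their calls under library totals (0.241, 0.185 and 0.0746), ENO1 also with limma-trend (0.0588), and PFKFB2 with DESeq2, limma-trend, no filter and the filter on the input mean (0.0510 to 0.0568). Calls were gained without a filter for GPI (0.0239) and SLC16A1 (0.0283) in input, and in footprints for PGAM1 and PFKFB4 with DESeq2 (0.0254 and 0.0356) and without a filter (0.0331 and 0.0421). The causes were not tested. Per-codon shares from RefSeq proteins were not run; shares per reading frame base, and density without DMSO dish 1, were chosen after seeing the data and changed no direction or call. Input depth and 3 dishes limit what density can show.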

Other observations

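The pentose phosphate pathway branches from glycolysis at glucose 6-phosphate and supplies NADPH and ribose. Its 7 genes were all tested. TKT, transketolase, rose in input (log2 change ± SE 0.91 ± 0.16, edgeR adjusted p = 0.000747), with 0.46 ± 0.18 in footprints (adjusted p = 0.0567). RPIA, which makes ribose 5-phosphate, fell by 0.71 ± 0.22 in input (adjusted p = 0.0249) and by 0.72 ± 0.14 in footprints (adjusted p = 0.00319). Its input call held in 3 of 6 fits with a library left out (largest adjusted p = 0.116, without DMSO dish 2).

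PGD, an NADPH-producing enzyme, had a log2 change of 0.04 ± 0.15 in input (adjusted p = 0.863) and fell in footprints (-0.70 ± 0.16, adjusted p = 0.00722), and its change in density was -0.66 ± 0.22 (adjusted p = 0.329). RPE rose in footprints (0.46 ± 0.12, adjusted p = 0.0105), a call lost without trametinib dish 1 (adjusted p = 0.0687). In footprints, TKT stayed uncalled in 3 of 6 fits with a library left out. It was called in the others, among them that without DMSO dish 1 (0.29 ± 0.11, adjusted p = 0.0361). None of the 7 genes was called in density. The genes given here were named after their values were seen.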
